A study of Mus musculus with 8 samples.

Results

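The TCP1 ring complex (TRiC, also called CCT) is the chaperonin of the cytosol, and the 8 genes that code for its subunits, Tcp1, Cct2, Cct3, Cct4, Cct5, Cct6a, Cct7 and Cct8, are described here in fetal livers without and with the erythroid transcription factor EKLF. A probe set, the group of short probes that reports a transcript on an Affymetrix array, was taken as a member when its platform annotation gave a single symbol and that symbol was 1 of the 8. They were 8 of the 18193 genes named in this way, with 25 of the 45101 probe sets. Of those 25, 23 passed the filter on low values, a mean signal above 100 in KO or in WT, and all 8 genes kept at least 1.

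The samples were whole E14.5 livers of 4 Eklf-/- (KO) mouse embryos and 4 wild-type (WT) embryos, with 1 array per embryo and no culture of the cells. The KO mice were a B6 line, made with a BAC construct that carried an engineered Eklf locus and with E2A-Cre mice, and were homozygous for the knockout. The KO arrays carried the replicate numbers 2 to 5 and the WT arrays 1 to 4. All KO titles shared a code that no WT title had, so anything that went with that code and the genotype cannot be told apart.

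TRiC is built from a pair of stacked rings, each with a single copy of every subunit, and it closes over an unfolded protein and lets it fold inside while ATP is split. Actin and tubulin are its best known clients, and proteins with beta-propeller domains, such as the cell cycle regulator Cdc20 and the beta subunits of G proteins, are others. Prefoldin hands actin and tubulin over to it, and phosducin-like proteins work with it as cofactors. In growing cells it is abundant, and the fetal liver at this stage is mostly made of dividing erythroid precursors.

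The subunits gave strong signals in both groups, slightly lower in KO livers as the arrays were scaled by the authors. On the brightest probe set of each gene, the mean signal over the 8 arrays lay between 7930 and 17000. The log2 difference, KO minus WT, lay below 0 for 8 of 8 genes, with a range of −0.55 to −0.15 and a median of −0.22. Cct4 and Cct6a passed the test (limma, Benjamini-Hochberg adjusted p under 0.05), both lower in KO, and 0 of 8 were called higher. Over all genes tested on their brightest probe set, 21% were called lower and 25.6% higher, and the median difference was 0.06. These 2 of 8 calls are close to that background. It covers genes of all brightness, whereas the 8 subunits lay at percentiles 96.2 to 98.9 of mean signal. The shares among genes of like brightness were not worked out.

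Upstream sequences are shown for 4 of the genes, chosen to show which hold the letters bound by EKLF (Cct6a, Cct5 and Cct3) and which hold a CCAAT box without them (Tcp1). A window was found for 7 of the 8 genes in RefSeq (GRCm38.p6), all but Cct4. Each sequence is the 150 bases before the most upstream annotated start, 5′ to 3′ on the strand of the gene. Capitals mark CACCC, the core letters bound by EKLF, its longer form CCNCNCCC, and CCAAT, the box bound by NF-Y, on either strand.
Cct6a, chr5:129787206-129787355, plus strand: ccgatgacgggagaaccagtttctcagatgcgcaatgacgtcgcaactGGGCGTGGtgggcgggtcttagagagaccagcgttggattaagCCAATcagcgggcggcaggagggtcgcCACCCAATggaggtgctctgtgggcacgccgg
Cct5, chr15:31601847-31601996, minus strand: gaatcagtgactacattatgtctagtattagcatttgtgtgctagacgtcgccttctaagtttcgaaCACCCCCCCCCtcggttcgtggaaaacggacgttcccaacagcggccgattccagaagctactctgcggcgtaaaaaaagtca
Cct3, chr3:88296985-88297134, plus strand: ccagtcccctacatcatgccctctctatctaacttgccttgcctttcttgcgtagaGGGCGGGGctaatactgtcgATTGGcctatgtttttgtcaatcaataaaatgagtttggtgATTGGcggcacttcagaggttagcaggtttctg
Tcp1, chr17:12916179-12916328, plus strand: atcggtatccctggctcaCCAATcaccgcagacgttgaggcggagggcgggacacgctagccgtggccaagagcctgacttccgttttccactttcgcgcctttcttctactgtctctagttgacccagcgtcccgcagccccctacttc

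Cct6a was the only gene of the 7 whose window of 250 bases held all of CACCC, CCNCNCCC and CCAAT. Its CACCC began 32 bases before the start and shared letters with a CCAAT that began 29 bases before it. CACCC was found in 3 of the 7 windows (Cct5, Cct6a and Cct8), against 52% of all 32851 windows in the table, and CCNCNCCC in 6 of 7, against 45.9%. CCAAT was found in 4 of 7 (Tcp1, Cct3, Cct6a and Cct7), against 33.8%. Of the 2 forms of the heat shock element, GAANNTTC was in 0 of 7 windows (6.69% of all) and TTCNNGAA in 1, that of Cct5 (7.17% of all). The motifs were searched on both strands and can overlap, and a match is a description of the letters and not a binding site.

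EKLF itself served as a check of the labels. Klf1, the gene for EKLF, had a log2 signal of 10.81, 10.56, 10.65 and 10.59 in KO livers and of 14.04, 13.87, 13.98 and 13.90 in WT livers, a difference of −3.30 (SE 0.0994, adjusted p = 5.9e-07, limma). The 8 arrays thus fell into the groups that their labels give. Markers of several cell types differed with genotype as well. All 10 erythroid markers measured were lower in KO, with a summed signal of 63600 to 72000 in KO and 156000 to 166000 in WT, and 5 of 10 hepatocyte markers were lower and 1 higher (132000 to 157000 in KO, 196000 to 218000 in WT). Endothelial markers were higher for 8 of 10 (7970 to 9770 in KO, 6160 to 6630 in WT), megakaryocyte markers for 4 of 6 (27700 to 35200 in KO, 23300 to 26400 in WT) and granulocyte markers for 2 of 8 (46400 to 112000 in KO, 44700 to 52400 in WT). KO replicate 5 was the highest KO liver for every granulocyte marker, as for Camp, at 13.04 on the log2 scale against 10.87 to 10.95. Of macrophage markers, 2 of 12 were lower (22200 to 40500 in KO, 36100 to 41400 in WT), and of 8 lymphoid markers only 3 had a signal above 100 in either group. Over all genes 25.6% were called higher and 21% lower, so the granulocyte and macrophage counts are near that background. These counts hold for the scaling of the deposited values. With the hybridisation controls as the scale, 6 of the erythroid markers were lower and 0 higher, while 5 of the hepatocyte markers were higher and 0 lower. On that scale 77.6% of all probe sets were called higher and 2.58% lower. The part of these shifts in the subunits' differences was not tested, and in such bulk samples fewer cells of a type and less RNA per cell cannot be told apart.

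The subunits are taken in the order of the ring's 2 sides, which in yeast differ in their affinity for ATP. Values are MAS5.0 signals in the order of the replicate numbers, and since each probe set has its own brightness, levels of different genes are not compared. On the high-affinity side, with Cct4, Cct2, Cct5 and Cct7, the median log2 difference was −0.26, and on the low-affinity side, with Cct6a, Cct3, Cct8 and Tcp1, it was −0.20.

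Cct4, the delta subunit, differed most of the 8. Its signal was 13860, 13390, 14470 and 12560 in KO livers and 17730, 20460, 21370 and 19770 in WT livers. Every KO liver lay below every WT liver. The log2 signal averaged 13.73 ± 0.0861 in KO and 14.27 ± 0.115 in WT (SD, n = 4 each), a difference of −0.55 (SE 0.101, adjusted p = 0.0023, limma) or 1.46-fold lower. The other bright Cct4 probe sets, with mean signals above 1000, gave −0.43 (1415867_at, adjusted p = 0.011) and −0.53 (1438560_x_at, adjusted p = 0.0043), again with no overlap of the groups. The brightest, 1433447_x_at, and 1438560_x_at carry the suffix _x_at, as do the brightest probe sets of Cct2 and Cct3. That suffix marks probes that can also match other transcripts, so these values may not be from a single gene. Without it, 1415867_at fell least of the 3. Across all probe sets 17.7% were called lower and 34.4% higher, and all 3 bright probe sets of Cct4 were among those called lower. The brightest kept its call without any single array, but under quantile normalization it was not called (−0.11, adjusted p = 0.33).

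The 4 dim probe sets of Cct4 gave no such picture. Of these, 3 were not called, with log2 differences of −0.15, −0.45 and −0.36 and adjusted p-values of 0.62, 0.069 and 0.6. The fourth, 1415868_at, had a signal of 155.9, 96.78, 126.7 and 98.55 in KO livers and of 49.61, 2.211, 42.76 and 12.82 in WT livers. It passed the filter through KO alone, so it had to be higher there, and its values are given as a description, at least 1.17-fold higher in KO against a signal of 100.

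Cct2, the beta subunit, had a signal of 16360, 15770, 16200 and 14830 in KO livers and of 18620, 17530, 19450 and 17380 in WT livers. The groups did not overlap, but the difference of −0.21 (SE 0.0919) had an adjusted p of 0.086 and was not called. A second probe set, 1416037_a_at, likewise kept the KO livers below the WT livers, with −0.19 (adjusted p = 0.13). The remaining one, 1433534_a_at, gave 0.07 (adjusted p = 0.77), and its signal varied more within groups, from 7991 to 11770 in KO and from 7616 to 12300 in WT.

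Cct5, the epsilon subunit, which is mutated in a human hereditary sensory neuropathy, was read by a single probe set. Its signal was 14190, 11780, 14510 and 11460 in KO livers and 14300, 16980, 17640 and 15170 in WT livers. The highest KO liver lay above the lowest WT liver, and the difference was −0.31 (SE 0.125, adjusted p = 0.066), which did not pass. Cct7, the eta subunit, had signals of 11280, 9308, 11070 and 9927 in KO livers and 10930, 11550, 12970 and 10620 in WT livers. These groups overlapped, with a difference of −0.15 (SE 0.112, adjusted p = 0.29), and its other probe set, 1415817_s_at, pointed the other way at 0.14 (adjusted p = 0.29). The suffix _s_at marks probes that can match transcripts of more than a single gene, so that value may not be from Cct7 alone.

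On the other side of the ring, Cct6a, the zeta subunit, passed the test. Its signal was 16190, 13430, 14960 and 12470 in KO livers and 18290, 17550, 19540 and 17900 in WT livers. No KO liver reached the lowest WT liver, and the difference was −0.37 (SE 0.111, adjusted p = 0.022), or 1.29-fold lower. The second Cct6a probe set, 1423517_at, also kept all KO livers below the WT livers, but its −0.24 had an adjusted p of 0.074. The call was lost without KO replicate 3 (−0.34, adjusted p = 0.05) or WT replicate 3 (−0.34, adjusted p = 0.06), under quantile normalization (0.06, adjusted p = 0.66), with poly-A scaling (−0.45, adjusted p = 0.11) and with no filter (adjusted p = 0.081), and with the hybridisation controls as the scale Cct6a was called higher (0.38, adjusted p = 0.033). The testis copy Cct6b and the related gene Cct8l1 stayed below a signal of 100 in both groups and were not tested.

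Cct8, the theta subunit, had a signal of 7937, 6773, 7719 and 6876 in KO livers and of 8359, 9344, 8336 and 8396 in WT livers. The groups did not overlap, while the difference of −0.23 (SE 0.101, adjusted p = 0.079) missed the threshold. Its second probe set was too dim to test, at 10.84 to 27.86 in KO livers and 0.623 to 2.244 in WT livers. Tcp1, the alpha subunit after which the family is named, had signals of 15450, 12250, 16810 and 12180 in KO livers and 15480, 15140, 17770 and 14140 in WT livers. KO replicates 2 and 4 fell among the WT livers and replicates 3 and 5 below them, and the difference was −0.15 (SE 0.14, adjusted p = 0.39).

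**Figure D1:**
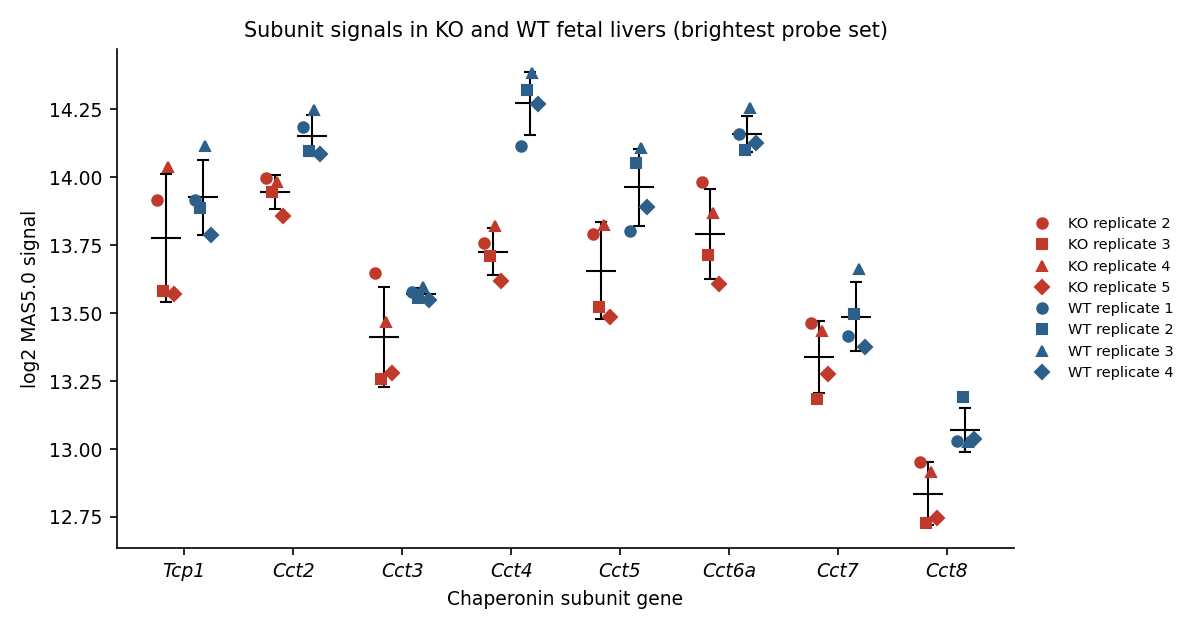
The log2 MAS5.0 signal (vertical axis) of each subunit gene (horizontal axis) is shown on its brightest probe set for 4 KO livers, at the left of each pair, and 4 WT livers, with the mean and SD as black lines. The groups are apart for Cct2, Cct4, Cct6a and Cct8 and overlap for the other 4 genes, and KO replicates 2 and 4 stand above KO replicates 3 and 5 for all 8.

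Cct3, the gamma subunit, showed how far probe sets of a single gene can differ. Its brightest probe set had a signal of 12850, 9781, 11320 and 9941 in KO livers and of 12220, 12030, 12400 and 11970 in WT livers, with overlapping groups and a difference of −0.16 (SE 0.112, adjusted p = 0.27). A probe set of like brightness, 1459987_s_at, had 9113, 6822, 9225 and 6962 in KO livers and 13200, 12080, 13220 and 12390 in WT livers. There all KO livers were below all WT livers, and the difference of −0.68 (SE 0.131, adjusted p = 0.0028) was the largest fall of any subunit probe set tested. Its suffix _s_at marks probes that can match transcripts of more than a single gene, so this value may not be from Cct3 alone. The other 2 bright probe sets gave −0.08 and −0.20 (adjusted p = 0.66 and 0.37).

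A further Cct3 probe set, 1439679_at, was as dim, with signals of 103.1, 132.6, 192.8 and 70.76 in KO livers and of 23.99, 10.48, 6.165 and 15.6 in WT livers. It too passed the filter through KO alone and is a description, at least 1.17-fold higher in KO against a signal of 100. These were the only subunit probe sets past the threshold in that direction. With the mean over all 8 arrays above 100 as the filter, neither was tested.

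Over the 23 tested probe sets, 5 were called lower, against 17.7% of all probe sets, which is near that background, and 2 higher, against 34.4%, both of them the dim ones that passed the filter through KO alone. Of the 23, 9 had every KO liver below every WT liver, 2 had every KO liver above, and 12 overlapped. Across all tested probe sets, the KO livers lay entirely below the WT livers in 17.4% and entirely above in 32.4%. Of the 17 subunit probe sets with a mean signal above 1000, 15 had a difference below 0, 9 had no overlap with KO below, 5 were called lower and 0 higher. The shares among all probe sets above 1000 were not worked out, so these counts have no background beside them and are a description. Among the 5 called lower, 3 were Cct4, and 1 each Cct3 and Cct6a.

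**Figure D2:**
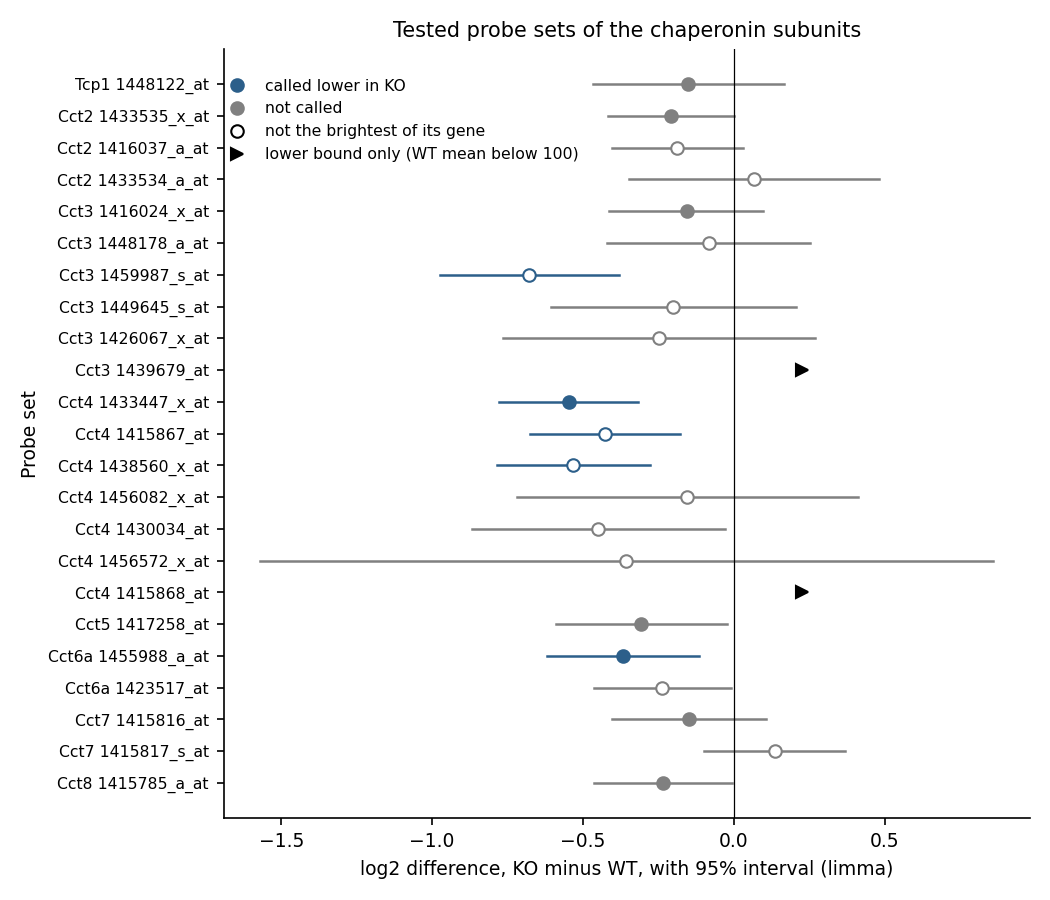
The log2 difference, KO minus WT (horizontal axis), with its 95% interval from limma is drawn for the 23 tested probe sets (vertical axis), filled for the brightest of each gene and coloured by call, with a triangle at the lower bound where the WT mean was below 100. In the deposited scaling most points sit slightly below 0, the 3 bright Cct4 probe sets lie between −0.55 and −0.43, and the 2 triangles mark the dim probe sets of Cct3 and Cct4, each at least 1.17-fold.

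The 8 genes varied together among livers of the same genotype. The mean log2 signal of the 8 was 13.69, 13.46, 13.67 and 13.43 in KO livers and 13.78, 13.84, 13.92 and 13.77 in WT livers, with means of 13.56 ± 0.137 in KO and 13.83 ± 0.0733 in WT (SD, n = 4 each). KO replicates 2 and 4 lay above replicates 3 and 5 for 8 of 8 genes and for 19 of the 23 probe sets, whereas 31.7% of all genes had this order and 27.6% the opposite. Among WT livers, replicate 3 was the highest for 7 of 8 genes (28.8% of all genes). The order of the KO livers went with other measures. Hspa1b, an inducible heat shock gene, had a log2 signal of 10.78, 13.08, 11.47 and 12.93 in KO livers and of 7.62, 7.43, 7.48 and 7.98 in WT livers, so it was lowest where the subunits were highest among KO livers. The 24 poly-A control probe sets, which report RNA added before labelling, averaged 7.89, 8.30, 7.72 and 8.20 in KO livers and 8.01, 7.96, 7.96 and 7.85 in WT livers, again lower in KO replicates 2 and 4 than in KO replicates 3 and 5. The part of either in the subunits' order was not tested.

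Because the 8 proteins are built into the ring in equal number, each subunit was also set against the mean of the 8 on its own array, a measure that no scaling of whole arrays by a factor can move. It is given for the brightest probe sets, which leave out Cct3 1459987_s_at with its larger fall in signal (−0.68). Among these 8, only Cct4 was called. Relative to that mean its log2 signal was 0.07, 0.25, 0.15 and 0.19 in KO livers and 0.34, 0.48, 0.46 and 0.51 in WT livers, with no overlap. The difference was −0.28 (SE 0.0987, adjusted p = 0.036, limma, with 9.25% of all probe sets called lower and 48.9% higher on this measure). The other 7 lay between −0.10 for Cct6a and 0.12 for Cct7 and were not called, with adjusted p-values of 0.31 to 0.81. Since the 8 relative values of an array add up to 0, a lower Cct4 puts the other 7 slightly higher. The Cct4 call was lost when any of KO replicates 2, 4 and 5 or WT replicates 2, 3 and 4 was left out. With the mean of all tested probe sets of a gene, dim ones included, Cct4 was at 0.16 (adjusted p = 0.31) and Cct3 was called higher, at 0.40 (adjusted p = 0.03). These means hold Cct3 1439679_at and Cct4 1415868_at, which passed the filter through KO alone and so had to be higher there. For Cct3 and Cct4 they are thus a description and not a test.

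**Figure D3:**
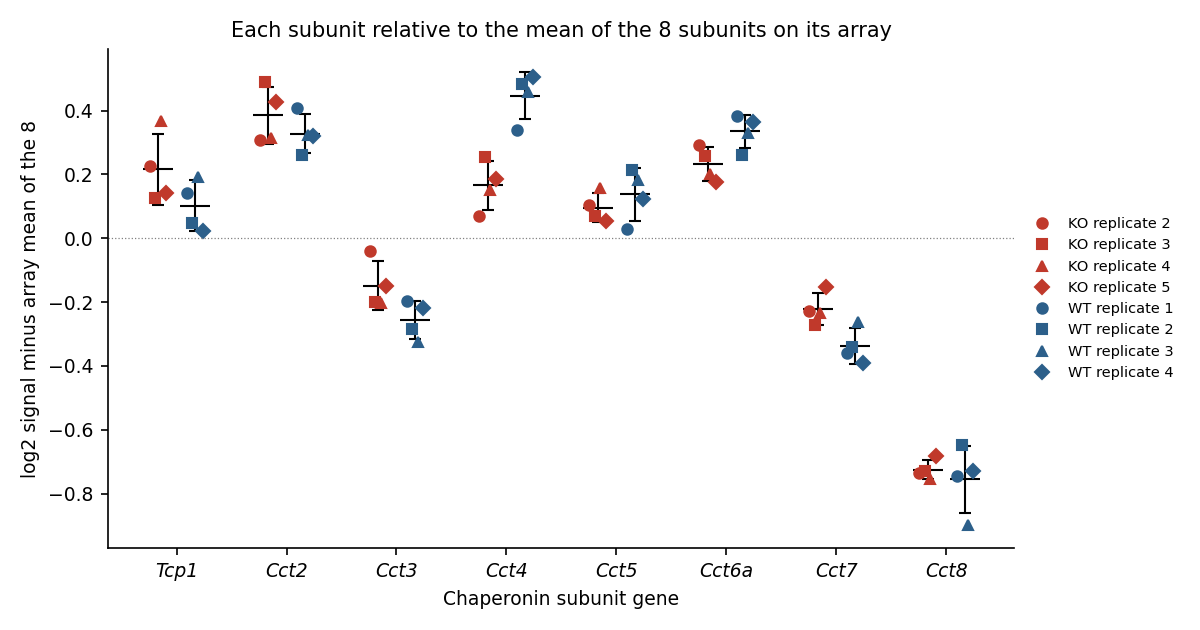
The log2 signal of each subunit (horizontal axis) minus the mean of the 8 on the same array (vertical axis) is shown for 4 KO livers, at the left of each pair, and 4 WT livers, with mean and SD as black lines. Cct4 is the only gene whose KO livers, 0.07 to 0.25, all lie below its WT livers, 0.34 to 0.51.

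The direction of the whole set depended on how the arrays were scaled. In the deposited values each array has the same trimmed mean, and the median signal was 96.7 to 114 in KO and 79.5 to 84.1 in WT. Scaled in this way the median difference of all tested probe sets was 0.17. Under quantile normalization that median was −0.01 and the median of the 8 subunits 0.13, with 0 of 8 called. Under scaling to the 75th percentile the medians were −0.10 for all probe sets and −0.49 for the subunits, and 8 of 8 were called lower.

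With the hybridisation controls as the scale, 18 probe sets for RNA added just before hybridisation, the median was 0.92 for all probe sets and 0.53 for the subunits, and 7 of 8 were called higher, all but Cct4. With the poly-A controls these medians were 0.08 and −0.31, and Cct4 alone was called, lower. Over all probe sets the share called higher and lower was 23.9% and 23% under quantile normalization, 22.3% and 30.9% under the 75th percentile, 77.6% and 2.58% under the hybridisation controls, and 24.8% and 12.9% under the poly-A controls. All but quantile normalization move every probe set of an array by the same amount, so the place of the subunit median below that of all probe sets, and Cct4 as the lowest of the 8, were fixed among them. Under quantile normalization the subunit median lay above that of all probe sets, and Cct4 was again the lowest of the 8. With the hybridisation controls Cct4 was at 0.20 and not called. The control probe sets differed between groups, since the hybridisation controls averaged 11.68 in KO and 12.43 in WT and the 18S rRNA probe sets 8.004 in KO and 11.90 in WT. As a sign of RNA quality, the 3′ minus 5′ log2 signal of the Actb controls was 0.59, 0.50, 0.49 and 0.61 in KO livers. In WT livers it was 0.90, 0.82, 0.93 and 0.76, with no overlap. That of the Gapdh controls overlapped, at −0.22, −0.23, −0.16 and −0.18 in KO livers and −0.20, −0.18, −0.08 and −0.19 in WT livers. The part of RNA quality in the subunits' differences was not tested. Which scaling reflects the RNA per liver cell was not tested.

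**Figure D4:**
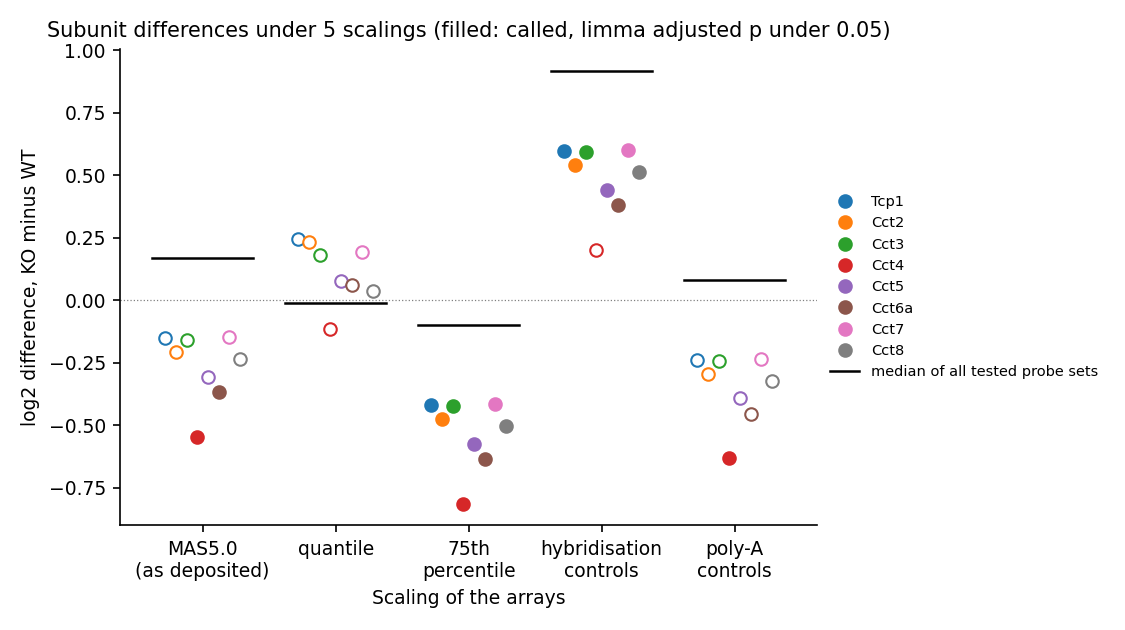
The log2 difference, KO minus WT (vertical axis), of the 8 subunits on their brightest probe sets is shown under 5 scalings of the arrays (horizontal axis), filled where called, with the median of all tested probe sets as a black line. The set moves from a median of −0.49 under the 75th percentile to 0.53 under the hybridisation controls. The order of the subunits is fixed under all but quantile normalization.

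The cofactors that bring proteins to TRiC were lower in part. Of 9 genes of prefoldin and its relatives measured, 5 were called lower and 0 higher (21% and 25.6% of all genes), with a median difference of −0.37. Pfdn6, which codes for a beta-type prefoldin subunit, had a log2 signal of 12.03, 11.65, 12.05 and 11.71 in KO livers and 12.70, 12.65, 12.72 and 12.58 in WT livers. All KO livers were lower, by 0.80 on the log2 scale (adjusted p = 0.00078, limma). Pfdn2, another beta-type subunit, was lower too (−0.67, adjusted p = 0.0011). Uxt, a prefoldin-like protein, Vbp1 and Pfdn4 completed the calls, and Pfdn5 (−0.11, adjusted p = 0.38) did not pass. Relative to the mean of the 8 TRiC subunits, 3 of the 9 were called lower and 1 higher. Under quantile normalization 3 were called lower (23% of all probe sets), and with the hybridisation controls 5 were called higher (77.6% of all probe sets). All directions given for partners, clients and chaperones are those of the deposited scaling.

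Of 3 phosducin-like cofactors measured, only Txndc9 was called, lower (−0.28, adjusted p = 0.038). The genes that assemble tubulin dimers after TRiC has released them were split, 2 higher and 3 lower of 6 (25.6% and 21% of all genes). Tbce (0.78, adjusted p = 0.00043) and Arl2 (0.28, an adjusted p just under the threshold) were higher, and Tbcd (−0.69, adjusted p = 0.0016) and Tbca (−0.46, adjusted p = 0.0039) were lower.

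The calls of the clients showed no common direction. Of 11 tubulins measured, 3 were higher and 3 lower, near the 25.6% and 21% of all genes. Their summed signal was lower, 53600 to 69900 in KO and 79300 to 88300 in WT. For the actins it was 57400 to 63900 in KO and 59500 to 66300 in WT. For the other clients it was 25100 to 28300 in KO and 29000 to 31800 in WT. Tubb5, the main beta-tubulin of dividing cells, had a log2 signal of 13.79, 13.70, 13.98 and 13.71 in KO livers and of 14.53, 14.45, 14.64 and 14.49 in WT livers, and Tuba4a and Tubb5 fell by 0.78 and 0.73 on the log2 scale (adjusted p = 0.0056 and 0.00056). Tubb2b and Tuba8 were higher by 1.14 and 0.88 (adjusted p = 0.0088 and 0.0059), and Tuba1a by 0.56 (adjusted p = 0.0097). The WT log2 signals of Tubb2b and Tuba8 were low, with means of 6.94 and 7.63. Of 6 actins, the smooth muscle genes Acta2 (0.90, adjusted p = 0.0028) and Actg2 (0.86, adjusted p = 0.0058) were higher. The cytoplasmic actins, which are the abundant clients, were not called, with −0.26 for Actb (adjusted p = 0.11) and 0.07 for Actg1 (adjusted p = 0.57).

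Among 13 beta-propeller proteins and other clients, 3 were higher and 2 lower (25.6% and 21% of all genes), with a median of 0.06. Ccne1, the cyclin that drives entry into S phase, was at −1.15 (adjusted p = 0.015) and Cdc20, the activator of the anaphase-promoting complex, at −0.62 (adjusted p = 0.0046). Gnb4, a G protein beta subunit, was at 0.89 (adjusted p = 0.0014) and Stat3, a cytokine signal transducer, at 0.65 (adjusted p = 0.014). The chaperonin-like genes of Bardet-Biedl syndrome, relatives of the TRiC subunits, had 1 of 3 called, Bbs10, lower (−0.52, adjusted p = 0.018). With the hybridisation controls as the scale, 8 of 11 tubulins, 6 of 6 actins and 11 of 13 other clients were called higher and 0 lower. On that scale 77.6% of all probe sets were called higher and 2.58% lower, so these counts largely follow the background.

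Other chaperones were set beside the ring. Hspd1 and Hspe1, the chaperonin of mitochondria and its lid, were both lower, by 0.33 and 0.42 on the log2 scale (adjusted p = 0.04 and 0.013, limma), but neither was called under quantile normalization, where their median was 0.03. Of 15 cytosolic heat shock genes measured, 3 were higher and 3 lower, near the 25.6% and 21% of all genes. Hspa1a and Hspa1b, the inducible Hsp70 genes, were higher, Hspa1b by 4.44 (adjusted p = 0.00014) and Hspa1a, whose WT mean lay below 100, at least 13.4-fold higher against a signal of 100 (adjusted p = 0.00034). Hsp90aa1 and Hspa8, the constitutive Hsp70, were lower (−0.57 and −0.49, adjusted p = 0.0028 and 0.025). None of the 8 TRiC subunits was called higher beside them in the deposited scaling. Proliferation genes were lower in 8 of 11, against 21% of all genes, with a median of −0.60. Their summed signal was 70700 to 89300 in KO and 150000 to 160000 in WT. With the hybridisation controls as the scale, 1 was lower and 1 higher, against 2.58% and 77.6% of all probe sets. The genes lower in the deposited scaling included Rrm2 (−1.98, adjusted p = 3.9e-05) and Pcna (−1.17, adjusted p = 0.00041). Their part in the subunits' difference was not tested.

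**Figure D5:**
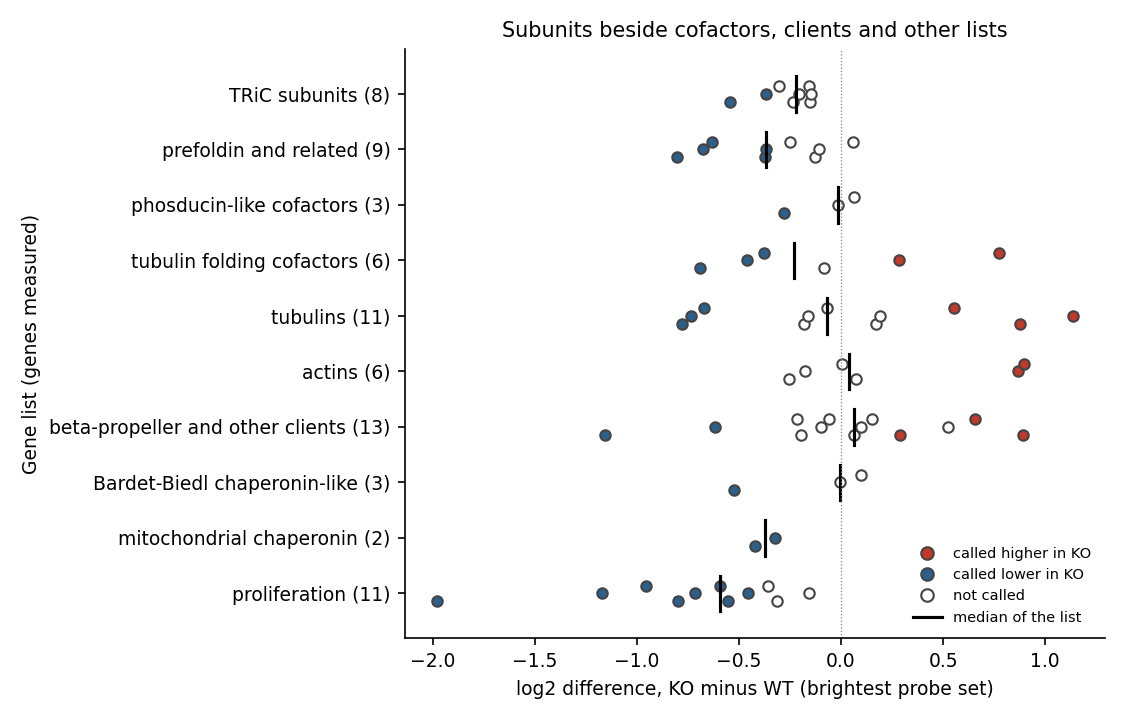
The log2 difference, KO minus WT (horizontal axis), is drawn for each gene measured in the TRiC list and in 9 lists of cofactors, clients, other chaperonins and proliferation genes (vertical axis), with called genes coloured and the list median as a black line. In the deposited scaling the 8 subunits lie in a narrow range of −0.55 to −0.15, while tubulins and clients spread to both sides of 0.

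The genes whose profile over the 8 arrays was nearest to the mean of the 8 subunits were found by the root mean square of the difference of mean-centred log2 signals. The 5 nearest of 11284 were Xpnpep1, a cytosolic aminopeptidase, at 0.0328, Uqcrc1, a core protein of respiratory complex III, at 0.0341, Myef2 at 0.0401, Ruvbl2, an ATPase of chromatin and chaperone complexes, at 0.0418 and Trmt112, a partner of methyltransferases, at 0.0441. The subunits themselves were at 0.0609 for Cct5 to 0.155 for Cct4, and the median gene was at 0.323. As many as 1406 genes lay within the distance of Cct4, the subunit farthest from that mean, and so were as near to it as Cct4. The counts within the distances of the other subunits were not worked out.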

How the data were processed

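RNA of E14.5 fetal livers of 4 KO and 4 WT embryos was hybridised to Affymetrix mouse arrays, 1 per embryo. MAS5.0 was run by the authors, and each deposited value is a linear intensity for 1 probe set on 1 array. The trimmed mean, without 2% at each end, was 500 on every array. The submitters' notes name MAS5 and R 3.0.2. At most 1 value was identical between any 2 arrays, so all counted as samples. The methods name a smaller array of the same family than the 45101 probe sets that the values cover. Arrays carry no count of molecules, so their number limits the precision.

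Intensities were put on the log2 scale, no pseudocount being added. Leaving out controls, the 23379 probe sets with a KO or WT mean above 100 (means taken as log2) were tested with limma 3.58.1 (lmFit and eBayes, two-sided, R 4.3.3) on genotype, with Benjamini-Hochberg adjustment over all of them, and an adjusted p under 0.05 was called. A gene was read on its brightest probe set, that with the highest mean. The relative fit subtracted the mean of the 8 subunits from each array. The alternatives were other scalings, pseudocounts, filters and tests, a replicate block, leaving out each array and averaging probe sets. Separate litters or days are not named, so p-values measure the spread between these embryos.

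The subunits and the 21 gene lists were chosen with earlier results of these data known. Named genes are all 8 subunits, Klf1, up to 2 called genes with the largest rise and fall in a list, Hspa1b, Actb and Tubb5, and the 5 nearest profiles, and Pfdn5, Actg1, Tuba1a, Uxt, Vbp1 and Pfdn4 were named after their values were seen. Tuba1b, Tuba1c, Actr2, Hsf1, Hsp90ab1 and Ccnb1 had no probe set with a single symbol and were not analysed here. Windows before gene starts came from RefSeq (GRCm38.p6). Figures were drawn with matplotlib 3.10.9.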

Additional observations from a re-analysis of the deposited data

Results flagged for a closer look

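In 66 sets of 4 arrays (the 25 probe sets and the 8 relative values, in KO and in WT), 2 single values lay far from the other 3 of their group, and chance alone gives this in about 1 in 20 groups. The first was Cct8, where WT replicate 2 had a log2 signal of 13.19 and the other WT livers 13.03 to 13.04, a gap of 0.937 of the whole range. The second was the dim Cct3 probe set 1426067_x_at, where WT replicate 1 stood at 8.53 (8.534) and the other WT livers at 8.20 to 8.23, a gap of 0.901 of the range. Neither probe set was called between KO and WT.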

How the results depend on the processing

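The count of subunits called lower on brightest probe sets, 2, was 0 under quantile normalization and hybridisation control scaling, 8 under the 75th percentile, 1 with poly-A controls, with no filter and with the mean of all probe sets of a gene, 5 with limma's trend and robust options, and 4 (adjusted) and 5 (unadjusted) by the methods' t-test. Called higher, 0, became 7 with hybridisation controls. Over all probe sets, 5 called lower became 2 under quantile normalization, 14 under the 75th percentile, 0 with hybridisation controls, 3 with poly-A controls, 10 with trend and robust options, and 9 (adjusted) and 10 (unadjusted) by the methods' t-test. The 2 called higher became 3 under quantile normalization, 15 with hybridisation controls, 0 with either stricter filter and 1 by the methods' t-test. For background, of all 23379 probe sets tested, 4146 were called lower in the main fit and 4463 with trend and robust options. By the methods' t-test 3209 (adjusted) and 4275 (unadjusted) were lower. With no filter it was 3311 of 45037. The shares under the other scalings are given above. Quantile normalization added the bright Cct7 1415817_s_at (0.336, adjusted p = 0.025, limma), whose probes can match transcripts of more than a single gene. Leaving out single arrays gave 1 to 3 called lower on brightest probe sets, 4 to 7 over all, 1 to 2 called higher over all, and 0 to 1 called lower relative to the mean of the 8. In the whole table, 3462 to 4223 probe sets were then called lower and 7139 to 7977 higher, of 23303 to 23562 tested. The cause of these moves was not tested.

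With the replicate number as a block over numbers 2 to 4, the subunits called lower were 1 on brightest probe sets and 1 over all. Without it, the same arrays gave 1 and 3. Of all 23534 probe sets, 2212 were called lower with the block and 3103 without it. On these arrays Cct3 1448178_a_at was at 0.0052 with and without the block. Same-numbered KO and WT arrays did not deviate together (correlations of −0.00084, −0.082 and −0.027), so the numbers were not taken to pair embryos.

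Quantile normalization turned the log2 difference above 0 for Tcp1 (0.247), Cct2 (0.232 and 0.184), Cct3 (0.181 and 0.239), Cct5 (0.0765), Cct6a (0.061 and 0.124), Cct7 (0.192) and Cct8 (0.0369). Hybridisation control scaling did so for Tcp1 (0.597), Cct2 (0.54 and 0.561), Cct3 (0.592, 0.665, 0.0711, 0.547 and 0.502), Cct4 (0.202, 0.322, 0.217, 0.594, 0.3 and 0.393), Cct5 (0.442), Cct6a (0.381 and 0.511), Cct7 (0.6) and Cct8 (0.514). The 75th percentile turned Cct2 1433534_a_at to −0.2 and Cct7 1415817_s_at to −0.131, and poly-A scaling turned Cct2 1433534_a_at to −0.019. Leaving out single arrays changed the sign of 5 values, none of them called: Cct2 1433534_a_at (−0.036 to 0.214), Cct3 1448178_a_at (−0.177 to 0.0116), Cct4 1456082_x_at (−0.348 to 0.0449), Cct4 1456572_x_at (−0.841 to 0.0858) and Cct8 relative to the mean of the 8 (−0.0178 to 0.0663).

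With the mean of all tested probe sets, Cct3 was at 0.311 and Cct4 at 0.0631, and relative to the mean of the 8 Tcp1 was at −0.0589, Cct2 at −0.0174, Cct4 at 0.155 and Cct8 at −0.143, with 1 called higher (Cct3) and 0 lower. These means hold the dim Cct3 and Cct4 probe sets whose WT mean was below 100, which passed the filter through KO alone. The Cct3 call is thus a description.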
